A study of Homo sapiens with 25 samples.

Results

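The mRNAs of 10 core proteins of stress granules were followed through an IGF2BP1 pull-down. They were chosen by gene symbol: G3BP1, G3BP2, TIA1, TIAL1, CAPRIN1, USP10, UBAP2L, ATXN2, FMR1 and FXR1. These are 10 of the 20044 protein-coding genes and of the 63086 genes counted, and all 10 passed the filter on low values that left 8734 tested genes. RNA immunoprecipitation sequencing (RIP-seq) reads the RNA bound to a protein after that protein is captured on beads. The cells were HCT116, a human colorectal carcinoma line, with IGF2BP2 and IGF2BP3 knocked out and the Tet-OsTIR1 transgene, and they expressed mCherry-IGF2BP1 from a lentivirus as WT, S181E, Y396E or RQ (R167Q, R168Q, R174Q and R178Q). S181E and Y396E replace phosphorylation sites of the disordered linkers with glutamic acid, which mimics a phosphate. Each line was treated with PBS (control) or 500 µM sodium arsenite for 2 h, with 3 libraries per line and treatment and 2 for RQ in arsenite. The remaining 2 of the 25 libraries came from parental HCT116 cells, 1 per treatment, which the paper describes as nonengineered. They measure what the beads pull down without the fusion protein. These cells also lack the IGF2BP2 and IGF2BP3 knockouts, so in ratios over the parental libraries the knockouts and the fusion protein cannot be told apart. Each mCherry line was a population sorted in a narrow gate, so each variant is represented by 1 cell population on a knockout background made from single-cell clones. Dishes were plated and grown independently, and p-values measure the spread between dishes of 1 line.

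Stress granules are assemblies of mRNA and protein that form when translation initiation stalls, for example when arsenite triggers phosphorylation of the initiation factor eIF2α. G3BP1 and its paralog G3BP2 nucleate them by binding RNA. CAPRIN1 binds G3BP and favours assembly, USP10 binds the same surface and opposes it, and UBAP2L acts with G3BP in the core. TIA1 and TIAL1 are RNA-binding proteins with prion-like domains, ATXN2 binds poly(A)-binding protein, and FMR1 and FXR1 are KH-domain proteins of the fragile X family. IGF2BP1 itself enters stress granules with its mRNAs. The question here was which of the mRNAs encoding these proteins came down with IGF2BP1, and whether the mutations or arsenite changed their level. The matching RNA-Seq is not used here, so more RNA in the cell and better recovery of the same RNA cannot be told apart.

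The mCherry libraries held 22246381 to 60273548 counts. The parental arsenite library held 18942497, but the parental control library only 1238013, so that 1 count there equals 0.675 CPM (CPM stands for protein-coding counts scaled to a common library size with TMM factors) and 40.9% of the tested genes were at 0. The epithelial markers EPCAM, KRT8, KRT18 and CDH1 were at 28.7 CPM or more in every mCherry library, while the intestinal marker VIL1 stayed at or below 0.738 CPM and the intestinal factor CDX2 lay between 8.79 and 27.2 CPM. The leukocyte marker PTPRC was at 0 in all 25 libraries. COL3A1 reached 0.347 CPM, PECAM1 reached 1.42 CPM and COL1A1 reached 13.4 CPM in the mCherry libraries. The mRNA of the bait IGF2BP1 had no read in either parental library, and relative to WT its log2 fold change was 0.50 in Y396E and 0.74 in RQ under control conditions (edgeR adjusted p = 0.0027 and 0.00050). After arsenite these values were 0.41 and 1.02 (adjusted p = 0.010 and 9.51e-05), those of S181E were 0.01 in control and 0.04 after arsenite and did not pass the test, and the bait mRNA fell with arsenite in all 4 lines, by 0.47 to 0.83. The part of the bait level in the results was not tested.

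The sequences of the 10 mRNAs were searched for the RNA elements that IGF2BP1 is known to read, which are the letters CGGAC and a CA-containing tetramer, which is ACAC or ACAT, or else CCAC or CCAT. Only the sense strand of the canonical transcript (GENCODE 44, hg38) was read, and overlapping tetramers were each counted. The tetramer was densest in UBAP2L, with 21.15 per kilobase or the percentile 92.6 of the tested transcripts, followed by ATXN2 with 17.48 (percentile 69.7) and USP10 with 16.53 (percentile 59.5). TIA1 had 9.71 (percentile 2.6), FMR1 11.48 (percentile 7.9) and G3BP1 12.81 (percentile 16.2), against a median of 15.74 over all tested transcripts. UBAP2L and ATXN2 were also the members with 4 tetramers in a coding window of 30 bases, which 30.9% of tested transcripts hold. Both have the longest coding sequences of the 10 (3261 and 3465 bases) and the shortest stretches after the stop codon (555 and 601 bases). The densest coding windows of these mRNAs and of TIA1 are shown 5′ to 3′, in the sense of the mRNA, with the tetramers in capitals. They lie in coding exons at chr1:154255292-154255321 on the plus strand, chr12:111518299-111518328 on the minus strand and chr2:70215465-70215494 on the minus strand.
UBAP2L: gagattccaaatactaCCACCACACaACAC
ATXN2: ctCCATgCCATcaagatCCACttctcACAC
TIA1: gttcaattcCCATgaaagtgcagcACATgc

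The bipartite form, CGGAC followed by a tetramer after 10 to 25 bases, was found in 25.0% of the tested transcripts and in 1 of the 10 members, G3BP1. It lies in the coding sequence and spans an exon junction, between chr5:151790395-151790897 on the plus strand, and is shown with both elements in capitals.
G3BP1: CGGACagaaagaaatCCAC
These matches describe letters in a window and not binding sites. The search was added after the members' values were seen, and a link between the letters and the levels was not tested. In UBAP2L, ATXN2 and the other members the bipartite form was not found. The GC content was 51.5% for UBAP2L and 50.0% for ATXN2, and 36.5% for TIA1 and 36.3% for FXR1, against a median of 48.2%.

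Per kilobase of exon, the WT control libraries held most USP10 (83.5 ± 9.69 CPM per kilobase, SD, n = 3) and UBAP2L (73.8 ± 5.28), whose spreads overlapped. CAPRIN1 (50.9 ± 5.53) and ATXN2 (39.1 ± 3.75) came next, then TIAL1 (24.3 ± 0.65). FXR1 (15.4 ± 3.15), G3BP2 (14.4 ± 0.94) and G3BP1 (12.4 ± 2.05) could not be ordered beyond their spread, and TIA1 (3.08 ± 0.22) and FMR1 (2.23 ± 0.44) were lowest. UBAP2L stood at the percentile 93.3 and TIA1 at the percentile 11.9 of the tested genes on this scale. The length used was that of all annotated exons of a gene. It exceeded the canonical transcript more for UBAP2L (5238 against 3877 bases) than for USP10 (3449 against 3328), and the order of the members depends on this choice. After arsenite the WT order was UBAP2L (254 ± 25.9), CAPRIN1 (121 ± 8.22) and ATXN2 (114 ± 5.86), the last pair within their spread, while FMR1 stayed lowest (2.58 ± 0.25).

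**Figure D1:**
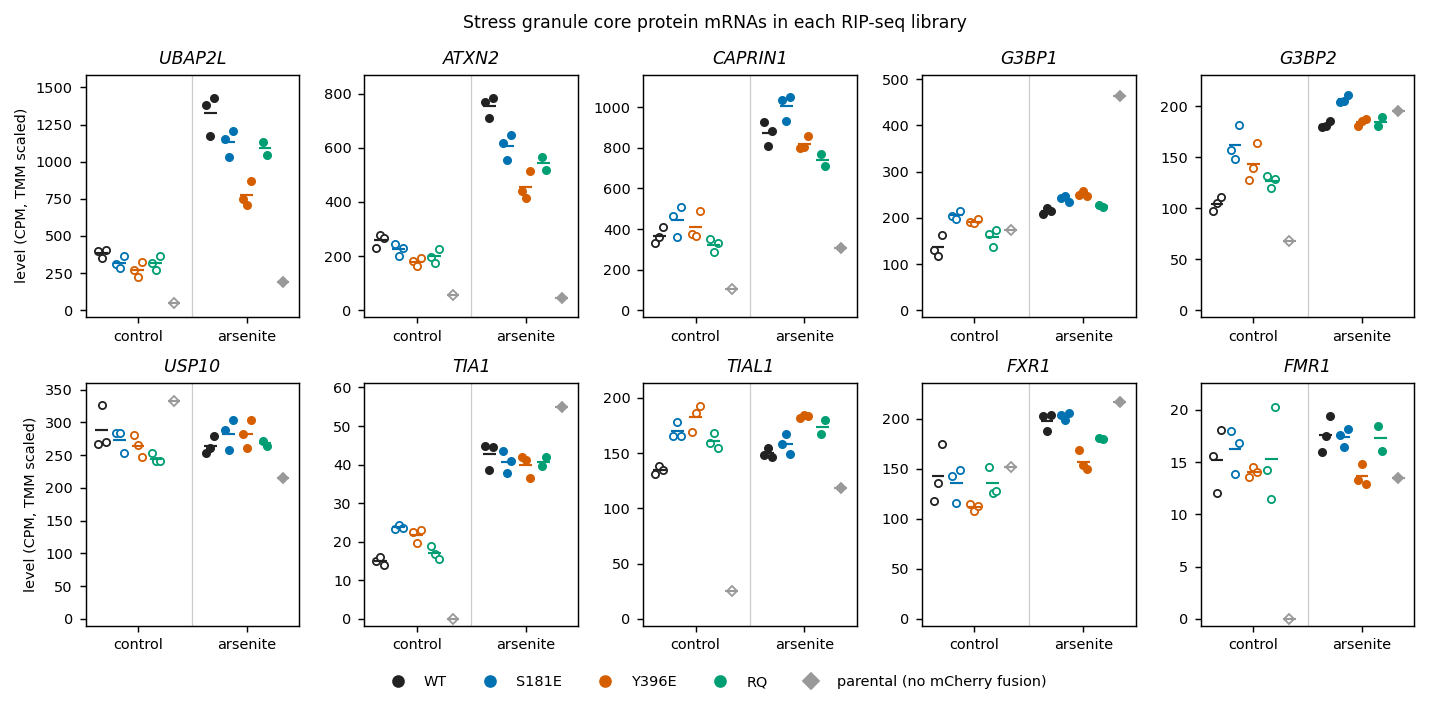
Level of each mRNA (CPM, TMM scaled, vertical axis from 0) in every library by line and treatment, with open symbols for control, filled symbols for arsenite, a short line at the group mean and diamonds for the single parental libraries. UBAP2L and ATXN2 lie far above the parental diamond after arsenite, with the Y396E libraries lowest of the 4 lines, whereas the arsenite libraries of G3BP1 and TIA1 lie below it.

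Of the 10 mRNAs, only UBAP2L and ATXN2 stood at least 4-fold above the bead background in all 4 lines after arsenite, 2 of 10 members where 5.62% of the tested genes did. ATXN2 was at 45.6 CPM in the parental arsenite library and at 770.2, 711.5 and 784 CPM in the WT arsenite libraries. This is 16.6-fold over the background (95% interval 15.6 to 17.6, counting error of the parental library only), and the ratio was 13.3 for S181E, 10.00 for Y396E and 11.9 for RQ. UBAP2L was at 193 CPM in the parental library and at 1384, 1174 and 1428 CPM in the WT libraries, 6.89-fold over it (95% interval 6.69 to 7.10), and its ratio was lowest in Y396E at 4.03. All libraries of these lines lay above the parental value for both mRNAs. UBAP2L in Y396E sat close to the threshold and fell under it without Y396E arsenite replicate 3 and with 2 of the other scalings, which left ATXN2 alone.

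CAPRIN1 came next after arsenite at 2.86-fold in WT and 2.42- to 3.29-fold over the lines. The other 7 members were near or under the parental level. TIAL1 was at 1.27-fold, FMR1 at 1.31-fold, USP10 at 1.23-fold, G3BP2 at 0.933-fold, FXR1 at 0.914-fold, TIA1 at 0.777-fold and G3BP1 at 0.463-fold in WT. The G3BP1 mRNA, at 464 CPM in the parental arsenite library, was thus higher there than in any mCherry arsenite library (208 to 258 CPM). In WT arsenite 2 of 10 members reached 4-fold, against 9.18% of tested genes, and the median over the members was 1.25 against 1.14 for all genes.

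Under control conditions 5 of 10 members were at least 4-fold over the parental library in WT, against 47.7% of tested genes, and 4 of 10 were in all 4 lines (TIA1, TIAL1, UBAP2L and FMR1), against 45.1%. For TIA1 and FMR1 the parental count was 0. Their WT values of 15.0 and 15.2 CPM were at least 7.43-fold and 7.52-fold above the floor of 3 counts (2.025 CPM). The filter on low values asked for 10 CPM in 11.5 or more of 23 mCherry libraries, which is over 4 times this floor. The parental control count was 0 for 40.9% of the tested genes. For these genes, TIA1 and FMR1 among them, depth and filter largely set the outcome. Recovery of TIA1 and FMR1 over the beads in control was therefore not tested. TIAL1 was at 5.39-fold from 37 parental counts, UBAP2L at 7.54-fold from 76 and ATXN2 at 4.55-fold from 84. G3BP1 (0.79-fold), USP10 (0.863-fold) and FXR1 (0.938-fold) were at the background. Set against the deeper parental arsenite library instead, none of the 10 reached 4-fold in all 4 control lines. That library differs from the parental control library in treatment as well as in depth, and the share of each in this drop cannot be told apart.

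**Figure D2:**
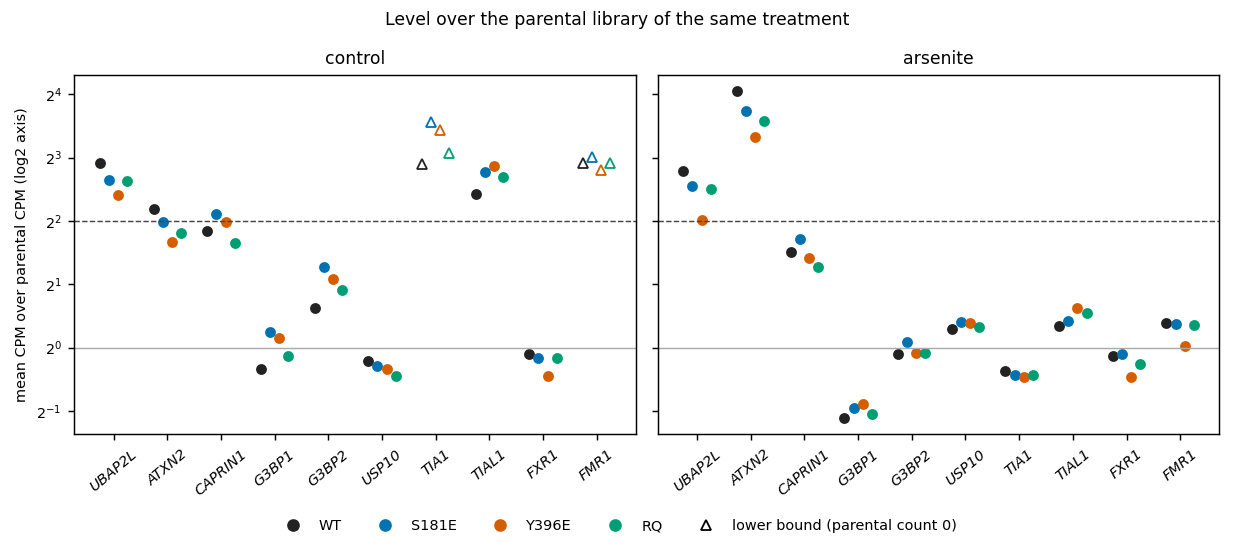
Ratio of each line's mean CPM to that of parental cells given the same treatment (log2 axis), with the dashed line at 4-fold. Open triangles, labelled as lower bounds, are ratios to the floor of 3 counts where the parental count was 0. After arsenite, ATXN2 (10.00 to 16.6) and UBAP2L (4.03 to 6.89) are the members above the dashed line.

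Both phosphomimetic mutants were compared with WT under control conditions to ask whether the linker mutations changed which mRNAs came down. G3BP1, G3BP2, TIA1 and TIAL1 were higher in S181E and in Y396E than in WT. A gene was called at an edgeR adjusted p (Benjamini-Hochberg over 8734 genes) under 0.05 and a change of more than 20%. In S181E, 4 of 10 members were called higher and 0 lower, where 12.8% of tested genes were called higher. In Y396E, 4 were higher, where 16.2% of tested genes were, and 3 were lower (UBAP2L, ATXN2 and FXR1), where 12.7% were. The median log2 fold change of the members was 0.20 in S181E and 0.04 in Y396E, against 0.05 and 0.05 for all tested genes. All mutants were set against the same 3 WT libraries, so these values are not independent of each other. Over the parental control library, G3BP1 was at 0.79-fold in WT, 1.18-fold in S181E and 1.11-fold in Y396E, and G3BP2 at 1.55-fold, 2.41-fold and 2.13-fold. FXR1 was at 0.938-fold in WT and 0.736-fold in Y396E, and ATXN2 at 4.55-fold and 3.16-fold. TIAL1 and UBAP2L were above 4-fold in each line. TIA1 was above it only relative to the floor of 3 counts, an outcome that depth and filter largely set. For TIA1 and for members near the bead background, the part of IGF2BP1 in these shifts was not tested.

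G3BP2 was at 97.5, 105 and 111 CPM in WT, at 157, 148 and 182 CPM in S181E and at 128, 139.6 and 164 CPM in Y396E. The groups did not overlap with WT, and the log2 fold change was 0.65 (95% interval 0.45 to 0.84, adjusted p = 4.55e-05) in S181E and 0.48 (0.28 to 0.67, adjusted p = 0.00071) in Y396E. G3BP1 was at 131, 118 and 162 CPM in WT, at 204, 198 and 214 CPM in S181E and at 190.2, 188 and 197 CPM in Y396E. Its lowest mutant library was above its highest WT library, with log2 fold changes of 0.59 (SE 0.10, adjusted p = 0.00021) and 0.50 (SE 0.10, adjusted p = 0.00070). G3BP1 has a processed pseudogene, and reads that fit both were not counted.

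TIA1, the least abundant of these, was at 15.0, 16.1 and 14.0 CPM in WT, at 23.3, 24.4 and 23.7 CPM in S181E and at 22.5, 19.7 and 23.2 CPM in Y396E. Its log2 fold changes were 0.67 (SE 0.13, adjusted p = 0.00059) and 0.55 (SE 0.13, adjusted p = 0.0021). Its paralog TIAL1 was at 131, 138 and 135 CPM in WT, at 165.2, 178 and 165.5 CPM in S181E and at 169, 186 and 193 CPM in Y396E. The groups did not overlap for either gene, and for TIAL1 the log2 fold changes were 0.34 (SE 0.08, adjusted p = 0.0036) and 0.45 (SE 0.08, adjusted p = 0.00017). With only the compared groups in the model, the TIA1 calls of both mutants and the TIAL1 call of S181E were lost (adjusted p = 0.10 to 0.15).

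ATXN2, UBAP2L and FXR1 were the members lower in Y396E. ATXN2 was at 230.1, 277 and 267 CPM in WT and at 182, 162 and 193 CPM in Y396E under control conditions, a log2 fold change of -0.51 (95% interval -0.74 to -0.28, adjusted p = 0.0016). UBAP2L was at 401, 355 and 405 CPM in WT and at 270.1, 227 and 324 CPM in Y396E, a log2 fold change of -0.48 (95% interval -0.76 to -0.21, adjusted p = 0.0082). Neither pair of groups overlapped. FXR1 was at 117, 136 and 174 CPM in WT and at 115, 108 and 113 CPM in Y396E, where the nearest libraries of the groups, at 117 and 115 CPM, almost met, with a log2 fold change of -0.33 (adjusted p = 0.038). The FXR1 call was lost without WT control replicate 3 (log2 fold change -0.16, adjusted p = 0.30) and without each of the 3 Y396E control libraries, and the UBAP2L call was lost without Y396E control replicate 2 (-0.38, adjusted p = 0.056). In all the FXR1 call was lost under 8 of 14 alternatives and the UBAP2L call under 3. Scaled by total counts, which raised the median of all genes by 0.27 in this comparison, the 3 lower calls were lost and 5 members were called higher. In that setting 3668 of 8734 tested genes were called higher and 485 lower.

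CAPRIN1, USP10 and FMR1 passed the test in neither mutant under control conditions. CAPRIN1 had log2 fold changes of 0.29 (95% interval 0.03 to 0.55, adjusted p = 0.10) in S181E and 0.17 (-0.09 to 0.43) in Y396E. For USP10 they were -0.06 (-0.25 to 0.13) and -0.11 (-0.30 to 0.08). For FMR1, at 12.1 to 18.1 CPM in these libraries, they were 0.10 (-0.29 to 0.50) and -0.10 (-0.49 to 0.29), so that changes of either sign within these intervals were not excluded.

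In the RQ mutant under control conditions ATXN2 was the single member called, 1 of 10 lower where 2.83% of tested genes were. It was at 196, 173 and 228 CPM, below all WT libraries, with a log2 fold change of -0.37 (95% interval -0.61 to -0.14, adjusted p = 0.048). The call did not hold without RQ control replicate 1 or 2 or WT control replicate 2 or 3 (log2 fold change -0.37 to -0.28, adjusted p = 0.099 to 0.17). TIAL1 (0.26, adjusted p = 0.054) and G3BP2 (0.28, adjusted p = 0.080) did not pass the test although their RQ libraries lay above all WT libraries. Scaled by total counts, the ATXN2 call was lost (-0.28, adjusted p = 0.056) and G3BP1 (0.30), G3BP2 (0.38) and TIAL1 (0.35) were called higher. In that setting 764 of 8734 tested genes were called higher and 167 lower.

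**Figure D3:**
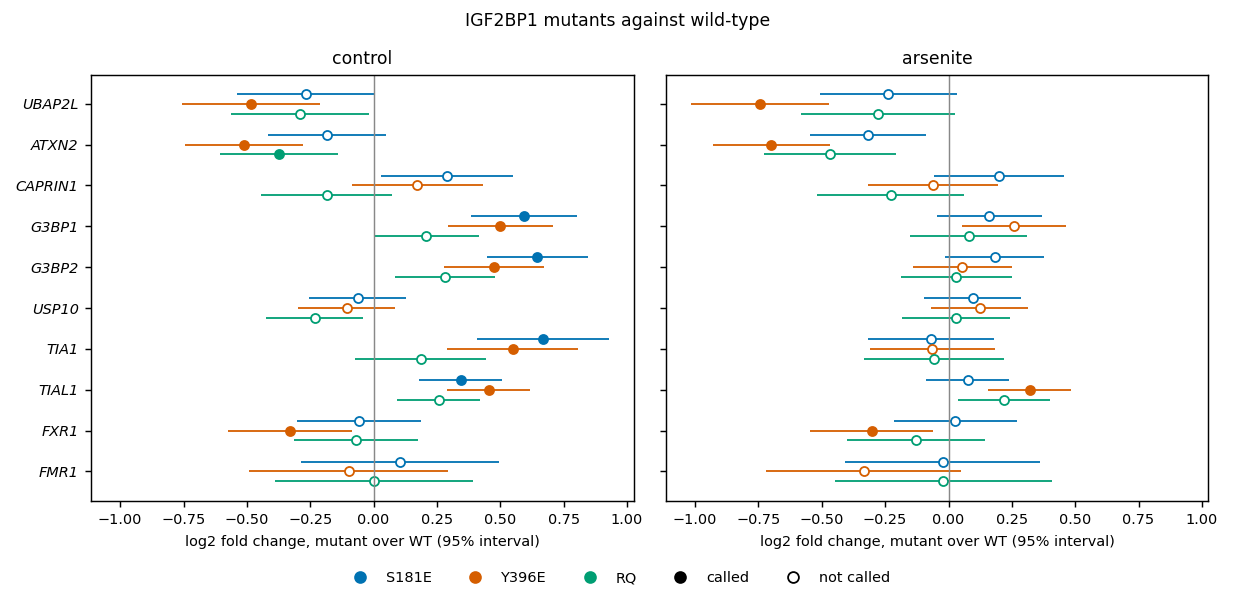
Log2 fold change of each mRNA in S181E, Y396E and RQ over WT, with 95% intervals, under control conditions (left) and after arsenite (right), where filled points were called and open points were not. Under control conditions G3BP1, G3BP2, TIA1 and TIAL1 have filled points to the right of 0 for S181E and Y396E, and UBAP2L and ATXN2 have filled points to the left of 0 for Y396E in both panels.

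After arsenite UBAP2L and ATXN2 were again lower in Y396E than in WT. UBAP2L was at 1384, 1174 and 1428 CPM in WT, at 1154, 1030.2 and 1207 CPM in S181E, at 750.2, 708 and 873 CPM in Y396E and at 1131 and 1047 CPM in RQ. Every Y396E library was below every library of the other lines. The log2 fold change of Y396E over WT was -0.74 (95% interval -1.02 to -0.47, adjusted p = 0.00016), with -0.24 (-0.51 to 0.03, adjusted p = 0.34) for S181E and -0.28 (-0.58 to 0.03, adjusted p = 0.56) for RQ.

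ATXN2 was at 770.2, 711.5 and 784 CPM in WT, at 619, 556 and 648 CPM in S181E, at 440.2, 414 and 513 CPM in Y396E and at 568 and 519 CPM in RQ. The libraries of all 3 mutants were below those of WT, and Y396E was lowest. The log2 fold change was -0.70 (95% interval -0.93 to -0.47, adjusted p = 5.38e-05) for Y396E, the smallest adjusted p of the members in this comparison. For S181E it was -0.32 (adjusted p = 0.090). Same-numbered S181E and WT arsenite libraries were correlated, although no source describes a shared batch. With a replicate block over all 23 libraries in the edgeR model, the ATXN2 call was made (log2 fold change -0.32, adjusted p = 0.0076). This raised the members called from 0 to 1, where 751 of 8734 tested genes were lower and 354 higher. For RQ, with 2 libraries, it was -0.47 (-0.73 to -0.21, adjusted p = 0.14). The calls of UBAP2L and ATXN2 in Y396E arsenite held under each of the 14 alternatives, with log2 fold changes from -0.95 to -0.52 and from -0.91 to -0.48.

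In all, 3 of 10 members were lower in Y396E after arsenite (UBAP2L, ATXN2 and FXR1), where 19.4% of tested genes were, and 1 was higher (TIAL1), where 13.1% were. TIAL1 was at 149, 155 and 146 CPM in WT and at 182, 184 and 184 CPM in Y396E, a log2 fold change of 0.32 (SE 0.08, adjusted p = 0.0035). FXR1 was at 203, 187 and 204 CPM in WT and at 169, 153 and 149 CPM in Y396E, a log2 fold change of -0.30 (edgeR adjusted p = 0.049). Both mRNAs were near the parental arsenite level, TIAL1 at 1.27-fold in WT and 1.55-fold in Y396E, and FXR1 at 0.914-fold and 0.726-fold. The FXR1 call was lost without any single one of the 6 libraries compared (-0.36 to -0.27, adjusted p = 0.051 to 0.13). It was also lost with DESeq2 size factors, with total counts, without the low-count filter and when tested against a change of 20%. In all it was lost under 10 of 14 alternatives. G3BP1 was at an adjusted p of 0.0499 with a log2 fold change of 0.26, just under a change of 20%, and was not called. With TMM factors from the 3707 tested genes at or below the parental arsenite level, the median of all genes fell by 0.21 here. TIAL1 was not called (0.11) and 4 members were lower, FMR1 being the fourth, where 2772 of 8734 tested genes were lower. With total counts, which raised that median by 0.22, 4 were higher and 2, UBAP2L and ATXN2, were lower. In that setting 2749 of 8734 tested genes were higher and 904 lower.

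In S181E after arsenite 0 of 10 members were called by edgeR, where 7.53% of tested genes were called in either direction. ATXN2 was the 1 member at an unadjusted p under 0.05, where 1722 of 8734 tested genes were. DESeq2 called 0 members, and over all tested genes 554 lower and 307 higher. In RQ 0 of 10 were called, where 0.504% were. There 2 members were at an unadjusted p under 0.05, where 842 of 8734 tested genes were. DESeq2 called 1 member (ATXN2), and over all tested genes 74 lower and 47 higher. The upper and lower bounds of the S181E intervals lay between -0.55 and 0.46, and G3BP1, G3BP2 and TIA1, which were higher in S181E under control conditions, had log2 fold changes of 0.16 (-0.04 to 0.37), 0.18 (-0.01 to 0.38) and -0.07 (-0.32 to 0.18).

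The 2 phosphomimetic mutants were then set against each other. Under control conditions 0 of 10 members were called between Y396E and S181E by edgeR, where 10.1% of tested genes were. An unadjusted p under 0.05 was found for 2 members and for 2472 of 8734 tested genes. DESeq2 called 1 member, and over all tested genes 815 lower and 477 higher. Same-numbered libraries were correlated here too, again without a described batch. With the replicate block over all 23 libraries in the edgeR model, ATXN2 was lower in Y396E (log2 fold change -0.33, adjusted p = 0.0062, against 0.064 without it). With that block 1050 of 8734 tested genes were lower and 722 higher. After arsenite 2 of 10 were lower in Y396E, where 9.22% of tested genes were: UBAP2L with -0.51 (95% interval -0.78 to -0.23, adjusted p = 0.014) and ATXN2 with -0.38 (-0.61 to -0.15, adjusted p = 0.028). Both calls were lost without S181E arsenite replicate 1 or 3 or Y396E arsenite replicate 1 or 2, with adjusted p between 0.050 and 0.15 and log2 fold changes of -0.49 to -0.45 and -0.36 to -0.32.

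Most members were higher after arsenite than in control in every line. In WT 7 of 10 were higher after arsenite, where 35.4% of tested genes were, and 0 were lower. In Y396E 7 of 10 were higher against 31.3% of tested genes, in RQ 7 of 10 against 32.4%, and in S181E 6 of 10 against 33.3%, G3BP1 being the member not called there (0.21, adjusted p = 0.072). The median over the members was 0.71 in WT, 0.44 in S181E, 0.44 in Y396E and 0.52 in RQ, against 0.03, 0.00, -0.02 and 0.00 for all tested genes. TIAL1, USP10 and FMR1 passed the test in no line, with log2 fold changes between -0.13 and 0.20.

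UBAP2L rose from 355 to 405 CPM in the WT control libraries to 1174 to 1428 CPM after arsenite, a log2 fold change of 1.77 (SE 0.14, adjusted p = 1.03e-10), and by 1.80 in S181E, 1.51 in Y396E and 1.78 in RQ. ATXN2 rose by 1.54 in WT (SE 0.11, adjusted p = 6.39e-11), 1.41 in S181E, 1.35 in Y396E and 1.44 in RQ. TIA1 rose from 14.0 to 16.1 CPM to 38.6 to 44.8 CPM in WT, a log2 fold change of 1.49 (SE 0.13, adjusted p = 4.91e-10). CAPRIN1 rose by 1.24 in WT (SE 0.13, adjusted p = 1.17e-08) and by 1.00 to 1.19 in the mutants. G3BP2 (0.79, adjusted p = 1.68e-07), G3BP1 (0.64, adjusted p = 6.89e-06) and FXR1 (0.47, adjusted p = 0.0013) rose less in WT.

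The parental libraries, which hold no fusion protein, changed too. From parental control to parental arsenite, UBAP2L went from 51.3 to 193 CPM (log2 ratio 1.91), CAPRIN1 from 103 to 306 CPM (1.57), G3BP2 from 67.5 to 195 CPM (1.53), G3BP1 from 173 to 464 CPM (1.42) and TIAL1 from 25.0 to 118 CPM (2.24). FXR1 went from 152 to 216 CPM (0.51), and TIA1, at a count of 0 in the control library, was at 54.9 CPM after arsenite. For ATXN2 the parental level went from 56.7 to 45.6 CPM (log2 ratio -0.32) and for USP10 from 333 to 214 CPM (-0.64). ATXN2 was thus the one member that rose in the mCherry lines while its parental level was lower after arsenite. The median over the 5162 tested genes with a parental control count was 0.07. With 1 parental library per treatment these changes have no error and no test, and their part in the rise of the mCherry libraries was not tested.

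**Figure D4:**
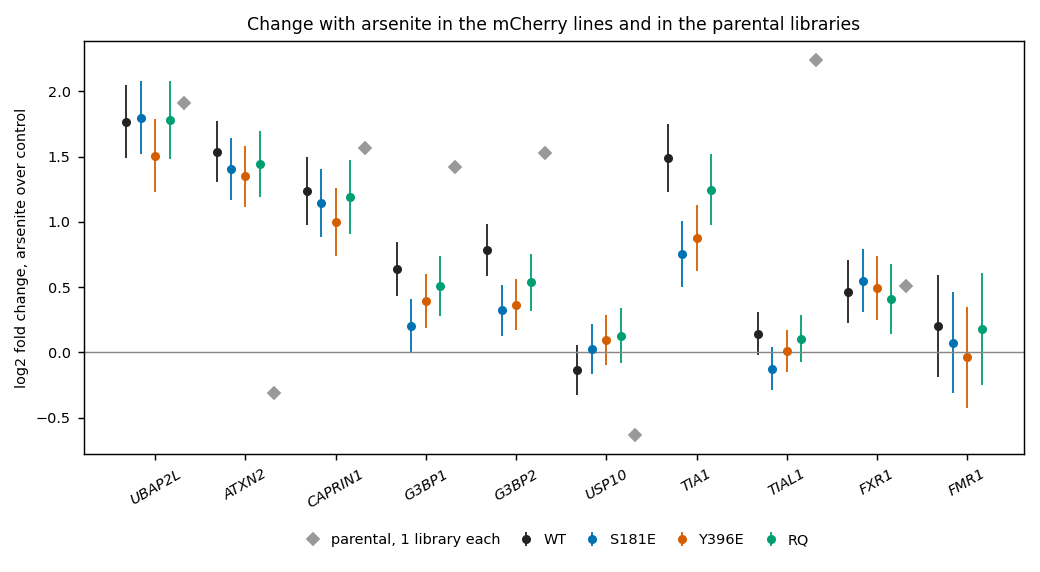
Log2 fold change from control to arsenite for each mRNA in the 4 mCherry lines (points with 95% intervals) and between the single parental libraries (diamonds, no error; none for TIA1 and FMR1, whose parental control count was 0). The ATXN2 points lie between 1.35 and 1.54 with its diamond at -0.32, whereas the UBAP2L diamond at 1.91 lies above its points at 1.51 to 1.80.

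Whether the change with arsenite differed between a mutant and WT was tested by the interaction of line and treatment. By edgeR 0 of 10 members were called for S181E (0.389% of tested genes), Y396E (2.85%) and RQ (0.0687%). At an unadjusted p under 0.05 were 4, 2 and 0 members, where 1128, 1569 and 844 of 8734 tested genes were. DESeq2 called 1, 1 and 0 members. Over all tested genes it called 75 lower and 63 higher for S181E, 251 and 132 for Y396E, and 33 and 38 for RQ. TIA1 came closest. Its rise of 1.49 in WT stood against 0.75 in S181E and 0.88 in Y396E, a difference of -0.74 (95% interval -1.10 to -0.38, adjusted p = 0.062) and -0.61 (-0.97 to -0.26, adjusted p = 0.054). TIA1 was called for both mutants without WT control replicate 2 (-0.78 and -0.66, adjusted p = 0.047 and 0.044), for S181E G3BP1 was called without WT control replicate 3 (-0.57, adjusted p = 0.043), and for Y396E TIA1 was called without Y396E control replicate 2 (-0.67, adjusted p = 0.043). For UBAP2L and ATXN2 the differences of Y396E were -0.26 (-0.64 to 0.12) and -0.19 (-0.52 to 0.14).

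The paralogs of 2 members could be followed as well. ATXN2L had a log2 fold change in Y396E after arsenite of -0.50 (adjusted p = 0.0014) and was not called in S181E (-0.33, adjusted p = 0.071) or RQ (-0.29, adjusted p = 0.45). It rose with arsenite by 1.65 in WT (adjusted p = 1.76e-11). FXR2, a paralog of FXR1, went the other way from FXR1 in Y396E, with 0.63 under control conditions (adjusted p = 0.0044) and 0.41 after arsenite (adjusted p = 0.040). Both also rose with arsenite in the other lines, by 1.16 to 1.62.

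Among 49 tested genes of other stress granule proteins, 31 (63.3%) were higher and 11 (22.4%) lower after arsenite in WT, where 35.4% of all tested genes were higher and 31.8% lower. The median log2 fold change was 0.58 against 0.03 for all tested genes. TAF15 (2.12), VCP (1.91), which helps to clear granules, and HNRNPA2B1 (1.81) changed most. In Y396E over WT 14 (28.6%) were higher and 7 (14.3%) lower under control conditions, against 16.2% and 12.7% of all tested genes. After arsenite 11 (22.4%) were higher and 10 (20.4%) lower, against 13.1% and 19.4%. The medians were 0.12 and 0.01, against 0.05 and 0.01 for all tested genes. PABPC1, the cytoplasmic poly(A)-binding protein, had the largest change of the list, -1.998 under control conditions (adjusted p = 1.80e-10) and -1.95 after arsenite (adjusted p = 1.22e-10), followed by the m6A reader YTHDF3 (-1.19 and -1.12) and PURB (-0.96 and -1.004). S181E had 8 (16.3%) higher and 7 (14.3%) lower under control conditions, against 12.8% and 8% of all tested genes, and 1 (2.04%) higher and 5 (10.2%) lower after arsenite, against 2.20% and 5.34%. PABPC1 was at -1.42 and -1.25 there. RQ had 3 (6.12%) higher and 2 (4.08%) lower under control conditions, against 3.51% and 2.83% (TAF15 0.69, PABPC1 -0.57 and NUFIP2 0.43 changed most). After arsenite edgeR called 0 of the 49 in RQ, where 0.286% of all tested genes were higher and 0.218% lower. There 6 of the 49 had an unadjusted p under 0.05, against 842 of 8734 tested genes.

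Of the 20 processing-body genes, which encode the machinery of mRNA decapping and decay, 8 (40%) were higher and 8 (40%) lower after arsenite in WT, against the 35.4% and 31.8% of all tested genes, with the deadenylase subunit PAN2 at 2.20 and LSM1 at -1.34. The decapping cofactor PNRC1 was lower in S181E, Y396E and RQ under control conditions (-0.62, -0.80 and -0.48) and in S181E and Y396E after arsenite (-0.96 and -0.92). Y396E had 6 (30.0%) lower and 2 (10.0%) higher under control conditions, where 12.7% and 16.2% of all tested genes were, and 7 (35.0%) lower and 2 (10.0%) higher after arsenite, where 19.4% and 13.1% were. Of 14 tested genes of eIF2 signalling, 4 (28.6%) were higher and 0 lower in S181E and in Y396E under control conditions, where 12.8% and 16.2% of all tested genes were higher, with medians of 0.26 and 0.24 against 0.05 for all genes in each. EIF2S1, the eIF2α subunit that stress kinases phosphorylate, was among them with 0.61 (edgeR adjusted p = 0.00010) and 0.56 (adjusted p = 0.00016). In RQ under control conditions 3 (21.4%) were higher and 0 lower, where 3.51% of all tested genes were higher. EIF2S1 was at 0.34 there (edgeR adjusted p = 0.038). After arsenite in WT 4 of the 14 (28.6%) were higher and 2 (14.3%) lower, against 35.4% and 31.8% of all tested genes, with EIF2B5 at 1.22 and the phosphatase subunit PPP1R15B at -0.95.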

How the data were processed

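RIP-seq of mCherry-IGF2BP1 was measured in 23 libraries of 4 lines and in 2 parental libraries. The authors depleted ribosomal RNA, made strand-specific single-read libraries, aligned them to hg38 with STAR (2.7.11b) and counted exons per gene on the reverse strand with featureCounts of Subread (2.0.6), leaving out reads with several places. The deposited values are these raw counts for 63086 genes. Reads shared with near-identical copies were therefore not counted. Symbols came from another GENCODE release by Ensembl identifier (62541 matched in any version, 545 did not).

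From the counts, edgeR 4.0.16 in R 4.3.3 gave TMM factors over protein-coding genes, following the authors' methods. Genes that passed 10 CPM in 11.5 or more of 23 mCherry libraries entered 1 quasi-likelihood model of 8 groups, and p-values were Benjamini-Hochberg adjusted. Calls needed an adjusted p under 0.05 and a change over 20%, counted from the lower of the levels compared. Printed CPM use TMM over all 25 libraries. Levels over the parental library used a floor of 3 counts, and intervals and floors cover counting error only, since PCR copies are not independent molecules. Fold changes of single members are edgeR estimates. Other edgeR settings and DESeq2 1.42.0 were used for alternatives, and Python 3.11.15, pandas 2.3.3 and matplotlib 3.10.9 for tables and plots. The procedure was tested on simulated data with known changes. Library totals are given with the results.

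The 10 members, the lists of 50 partner, 20 processing-body and 16 eIF2 signalling genes, and the tests were chosen with earlier results of these data known. The sequence search was added after the members' values were seen. Named genes were all members, the bait, the paralogs FXR2 and ATXN2L, and up to 3 called list genes with the largest change per comparison and non-overlapping libraries. Whether replicate numbers pair libraries was checked by correlating the deviations of same-numbered libraries from their group means. For S181E and WT in arsenite the 3 correlations were 0.283, 0.295 and 0.392. For Y396E and S181E in control they were 0.118, 0.455 and 0.562, so that all were over 0.1. For these comparisons the pairing was taken from the data, since no source describes a shared batch. The replicate block itself was fitted once to all 23 libraries of the 8 groups, and so also covered pairs at or under 0.1. Among these were replicate 1 of S181E and WT in control (-0.0153) and of RQ in arsenite and control (-0.122). In the other comparisons of 3 pairs at least 1 pair was at or under 0.1. The limit of 0.1 was a choice, and the 2 pairs of RQ and WT in arsenite, at 0.143 and 0.21, were over it as well. No pair of libraries held identical counts.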

Additional observations from a re-analysis of the deposited data

Results flagged for a closer look

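Among the partner genes, 2 had a change with arsenite that differed between Y396E and WT by the interaction test of edgeR. They were named after their values were seen. For SND1, which encodes a nuclease of the granule, the difference was 0.62 on the log2 scale (SE 0.13, adjusted p = 0.0086), in the direction of a larger rise in Y396E. For EIF4G2, a translation initiation factor, it was -0.51 (SE 0.11, adjusted p = 0.0094). No member was called by this test for any mutant.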

How the results depend on the processing

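Over the members called in at least 1 setting, 909 values under an alternative kept their direction and call, 55 lost the call, 51 gained one and 0 reversed. The counts of members called with arsenite in the 4 lines stayed within 1.5 times. With only the compared groups, S181E had 2 calls in control and 1 in arsenite, and RQ had 0 in control and 2 in arsenite. With total counts, RQ in control went from 1 lower to 3 others higher, S181E in arsenite from 0 to 3 higher, and the Y396E interaction had 2. With TMM over the 3707 genes not above the parental arsenite library (parental-level genes), RQ had 0 in control, Y396E over S181E 1 in control and the Y396E interaction 1. Without the low-count filter RQ had 0 in control. Against a change of 20% (glmTreat), RQ had 0 in control, Y396E 2 in arsenite and Y396E over S181E 0 in arsenite. DESeq2 called 1 for RQ in arsenite, 1 for Y396E over S181E in control and 1 each for the S181E and Y396E interactions. With the replicate block, RQ had 3 (2 lower and 1 higher) in control and 1 in arsenite, S181E 1 in arsenite, Y396E over S181E 1 in control, and the S181E and Y396E interactions 2 each. It moved S181E in control from 4 to 6, and it kept the other counts within 1.5 times. Leaving out 1 library gave 4 to 5 for S181E and 5 to 7 for Y396E in control, 0 to 2 for RQ in control, 3 to 3 for Y396E in arsenite, 0 to 2 for Y396E over S181E in control and in arsenite, 0 to 1 for the S181E and Y396E interactions, and 5 to 6 for arsenite in S181E. The members at least 4-fold over the parental library numbered 0 in control at 8-fold, with total counts and with the parental arsenite library (an alternative chosen after seeing the data), and 1 in arsenite at 8-fold, with total counts and with DESeq2 size factors, and 1 to 2 without 1 library. The causes were not tested. The Y396E calls over all genes changed from 1692 lower and 1146 higher in arsenite to 904 and 2749 with total counts and 2772 and 351 with TMM over parental-level genes, and in control from 1112 and 1411 to 485 and 3668 and to 1418 and 852. In the same order of settings, S181E in control changed from 699 and 1119 to 379 and 2432 and to 626 and 929, S181E in arsenite from 466 and 192 to 283 and 867 and to 485 and 98, RQ in control from 247 and 307 to 167 and 764 and to 189 and 134, and Y396E over S181E from 569 and 314 to 347 and 702 and to 841 and 131 in control and from 805 and 226 to 699 and 331 and to 1540 and 15 in arsenite. Total counts moved the median of all genes by 0.16 in S181E in both treatments and by 0.11 for Y396E over S181E in control, and TMM over parental-level genes by -0.15 for Y396E over S181E in arsenite, by -0.14 for arsenite in Y396E and by -0.11 for the Y396E interaction. The low depth of the parental control library limits the precision of the control ratios.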
